A study of Mus musculus with 24 samples.

Results

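The early culture step compares dissociated adult mouse dorsal root ganglion (DRG) neurons at 12 h after plating with the same kind of culture at 6 h after plating, gene by gene. It comprised 6 of the 24 libraries of the series, 3 at 12 h and 3 at 6 h, and all 20782 genes of the authors' table, of which 15006 passed a filter on low values and were tested. The libraries were chosen by their labelled time after plating, and no measured value entered that choice. At both times the cells came from adult lumbar DRGs that had been taken out, dissociated and seeded sparsely on laminin (5 μg/ml), and were kept in Neurobasal-A medium with B-27 at 36.5°C in 5% CO2. The cells were then sorted and lysed, and 10 ng of total RNA went into each library. The strain, sex and exact age of the mice, the gate of the sort and the number of animals behind a library were not stated in the labels, which name no allele and no drug for either group. Later cultures (24 h and 36 h, 3 libraries each) and adult L4-5 ganglia after a peripheral lesion or a sham operation (3 libraries each) served as further readings for the same genes. The remaining 6 libraries, from embryonic ganglia, are compared with no group here and enter only an alternative fit over all 24 libraries.

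DRG neurons carry touch, temperature, itch and pain signals from skin and organs to the spinal cord. Cutting their axon, whether by a nerve lesion in the animal or by dissociation of the ganglion, sets off a growth programme in which transcription factors such as Atf3, Jun and Sox11 precede effectors such as Sprr1a and Gap43, while genes for ion channels and sensory receptors tend to be turned down. In a dish the neurons attach to laminin and extend neurites over the first day, so that 6 h and 12 h fall in the opening phase of that programme. The series takes its title from Cacna2d2, an α2δ subunit of voltage-gated calcium channels.

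Values are the authors' normalized read counts, each a read count divided by 1 factor per library. The 12 h libraries rested on 3135330, 24023458 and 18711511 reads (replicates 1 to 3), and the 6 h libraries on 17771784, 22545933 and 3648071 reads. Replicate 1 at 12 h and replicate 3 at 6 h were therefore shallow, with 1 read worth 3.90 and 3.53 units there against 0.487 to 0.726 in the other 4. On the log2 scale replicate 1 at 12 h correlated with the other 12 h libraries across genes at r = 0.960 and 0.959, against 0.988 between those other libraries, and the 6 h libraries correlated with each other at 0.973 to 0.987. The libraries also differed in how their values ran with the GC content of the transcripts: the quintile of genes richest in GC lay −0.74, 0.38 and 0.19 log2 units from the poorest quintile in the 12 h libraries, and −0.34, −0.02 and −0.71 in the 6 h libraries (11751 genes). Both shallow libraries lay lowest on that measure, and genes called higher at 12 h had a median GC content of 52.8%, genes called lower 47.4% and the rest 49.6%. The part of GC content and depth in single calls was not tested. Replicates carry no label that ties them to separate cultures or animals, so p-values measure the spread between libraries, which may be technical.

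Between 12 h and 6 h, 880 genes rose (5.86% of the 15006 tested) and 708 fell (4.72%) at an adjusted p below 0.05 in limma, fitted on log2(value + 1) over the 12 culture libraries. Differences are given on that log2(value + 1) scale, where the pseudocount draws those of weakly expressed genes towards 0. Where a shallow library held few reads, differences could still be larger than in other fits. The integrin gene Itgb4 differed by 1.69, against 1.15 in edgeR and 0.88 without the shallow libraries. Ikbke differed by 1.64, against 1.04 and 0.82. The median difference was 0.80 among the risen genes and −0.71 among the fallen genes, against 0.00 over all tested genes. Changes of at least 2-fold were called for 271 risen and 157 fallen genes, and changes of at least 4-fold for 36 and 12. In 853 of the risen and 696 of the fallen genes the 12 h and 6 h libraries did not overlap at all, whereas over all tested genes 1994 (13.3%) were higher and 1976 (13.2%) lower at 12 h without overlap. With the 2 shallow libraries left out 935 genes rose and 659 fell, of which 650 and 523 were also called with them. With the GC trend of each library removed 1362 rose and 1386 fell, including 833 and 696 of those called without that step. None of the called genes had the opposite sign in either fit. Lists of genes are given below by their counts and median, to be read against these shares. Where limma called 0 members of a list in a direction, the brackets give the number that moved that way at an unadjusted limma p below 0.05, in edgeR and in DESeq2.

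**Figure D1:**
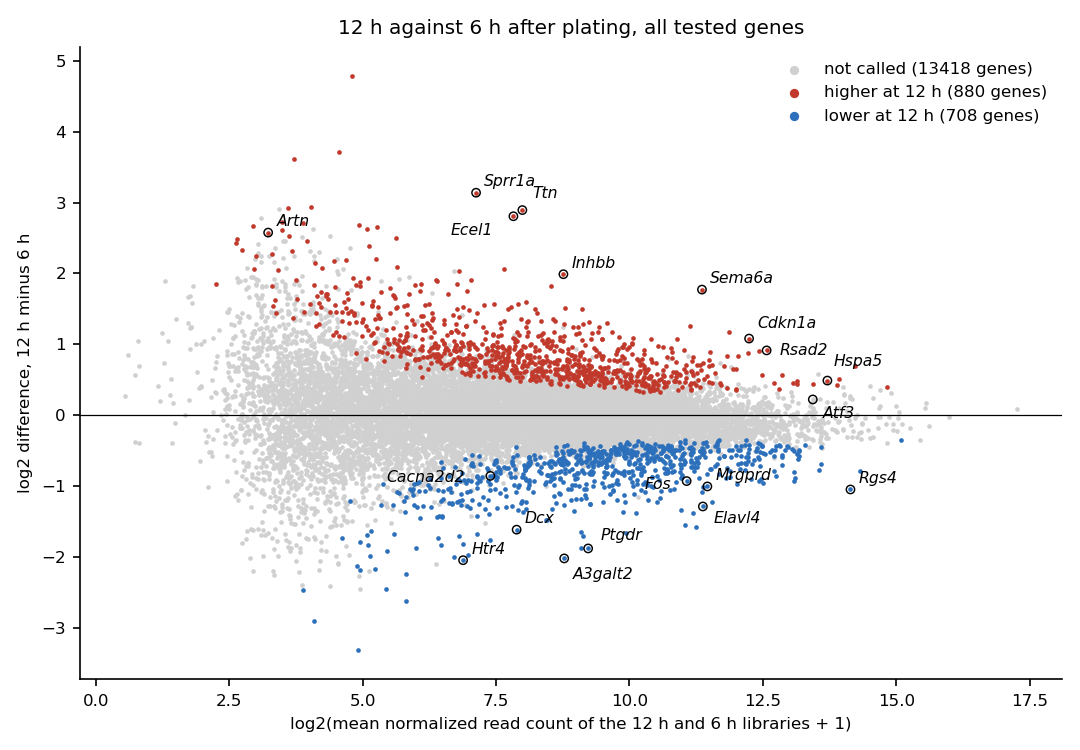
Difference between 12 h and 6 h for the 15006 tested genes (y axis, log2 of normalized read count + 1) against the mean level over the 6 libraries (x axis, log2). Red and blue points are the 880 genes called higher and the 708 called lower at 12 h, grey points the 13418 genes not called, and circles mark genes described in the text. Most called changes were under 2-fold, and Sprr1a, Ttn and Ecel1 stand above the other genes of their level.

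The 12 largest rises among well-expressed genes (a mean of at least 100 in the higher group, called, with no overlap between the groups) ran from 1.82 to 3.14 on the log2 scale. They were led by Sprr1a, which encodes a small proline-rich protein of skin cornification that injured sensory neurons make and that promotes neurite outgrowth. Sprr1a had 199, 260.2 and 283 normalized read counts in the 12 h libraries, against 45.7, 29.7 and 14.1 in the 6 h libraries, and the groups stood far apart (log2 difference 3.14 ± 0.28 SE, limma adjusted p = 1.95e-05). The gene lies at chr3:92483952-92485895 on the minus strand (GRCm38, GENCODE M21). Its culture means were 1611 ± 98.9 at 24 h and 2979 ± 397 at 36 h (± SD, n = 3 here and below), and the lesioned ganglia had 19137 ± 4546 against 469 ± 153 after sham surgery. The window around its start site is shown because it heads the list and holds the AP-1 element to which Jun and Atf3 family dimers can bind. It runs from 250 bases before to 50 bases after the RefSeq start at chr3:92485832-92486131 on the minus strand of GRCm38.p6, and the capitals mark both TGANTCA matches, which begin 146 and 116 bases before the start.
Sprr1a: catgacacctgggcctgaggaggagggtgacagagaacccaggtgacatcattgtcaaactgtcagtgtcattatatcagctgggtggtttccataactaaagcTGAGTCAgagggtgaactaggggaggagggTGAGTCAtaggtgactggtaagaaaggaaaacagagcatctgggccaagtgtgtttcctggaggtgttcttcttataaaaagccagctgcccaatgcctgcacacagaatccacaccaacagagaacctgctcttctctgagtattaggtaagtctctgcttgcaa
Over both strands TGANTCA occurred in the windows of 8.98% of all 27018 genes with a RefSeq window and of 6.58% of the 11087 tested genes that matched by symbol. Among regeneration-associated genes 34 of 46 matched and 6 held it. Of the 12 that rose 7 matched and 3 held it, namely Sprr1a, Plaur and Nts. Such a match is a description of letters and says nothing of binding.

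Second came titin. Ttn had 374, 477 and 495 normalized read counts in the 12 h libraries, against 52.3, 65.4 and 59.9 in the 6 h libraries (log2 difference 2.90 ± 0.21 SE, limma adjusted p = 3.21e-06). Ttn, at chr2:76703980-76982547 on the minus strand (GRCm38, GENCODE M21), encodes the giant elastic protein of the muscle sarcomere, and all 3 of its 12 h values exceeded every 6 h value. Its later means were 461 ± 102 at 24 h and 216 ± 62.9 at 36 h, and lesioned ganglia had 54.9 ± 45.0 against 66.2 ± 67.8 after sham surgery (limma adjusted p = 0.953). Ecel1 had 288, 510.2 and 393 normalized read counts in the 12 h libraries, against 47.9, 59.4 and 56.4 in the 6 h libraries (log2 difference 2.81 ± 0.22 SE, limma adjusted p = 4.72e-06). Ecel1, a membrane protein of the neprilysin family of metalloproteases known from injured neurons, had means of 1016 ± 209 at 24 h and 1319 ± 304 at 36 h.

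Inhbb had 658, 638 and 783 normalized read counts in the 12 h libraries, against 172, 182 and 166 in the 6 h libraries, each group within a narrow band (log2 difference 1.99 ± 0.14 SE, limma adjusted p = 1.52e-06). Inhbb encodes the βB subunit of activins and inhibins. Hmga2 had 168, 220.3 and 226 normalized read counts in the 12 h libraries, against 49.4, 46.2 and 67.0 in the 6 h libraries (log2 difference 1.90 ± 0.17 SE, limma adjusted p = 1.73e-05). Hmga2 is a chromatin protein of growing embryonic tissue, and its mean was 747 ± 34.4 at 24 h and 1112 ± 124 at 36 h. Il1rl1 had 456, 654 and 594 normalized read counts in the 12 h libraries, against 110.4, 171 and 212 in the 6 h libraries (log2 difference 1.82 ± 0.20 SE, limma adjusted p = 9.04e-05). Il1rl1 encodes ST2, the receptor of interleukin-33. The other leading rises were Nwd1, a signalling ATPase with WD repeats, Fam181b, the peptide gene Adm2 (adrenomedullin 2), Tril, which aids Toll-like receptor signalling, the synaptic adhesion gene Lrrc4b and the transcription factor Npas3, with differences between 1.85 and 2.06 and limma adjusted p between 1.95e-05 and 0.00248. The 24 h mean lay above the 12 h mean in 10 of the 12 and below it in 2, Adm2 and Npas3. After a lesion, when 20.9% of all tested genes rose and 20.2% fell, 4 of the 11 that could be tested there rose (Sprr1a, Ecel1, Inhbb and Adm2) and 0 fell in limma (0 also at an unadjusted p below 0.05).

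**Figure D2:**
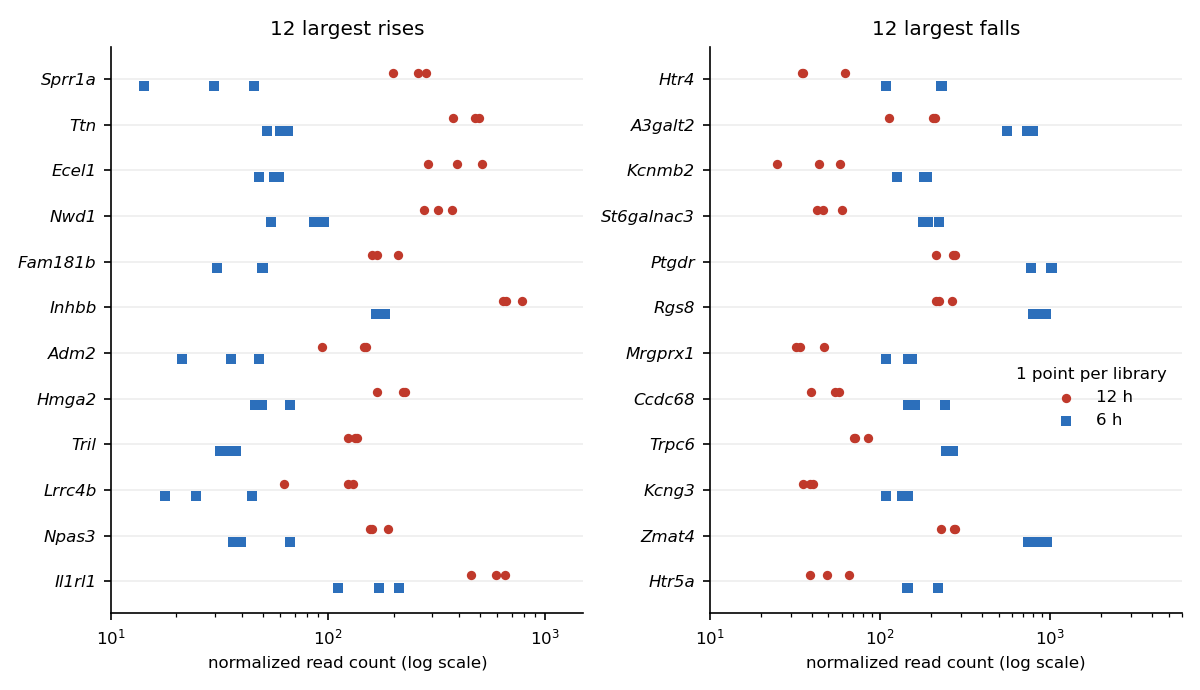
Normalized read counts (x axis, log scale) of the 12 largest rises (left) and the 12 largest falls (right) in each of the 3 libraries at 12 h (red circles) and at 6 h (blue squares). The rule that chose these 24 genes required the 3 libraries at 12 h to lie on 1 side of the 3 at 6 h.

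The 12 largest falls under the same rule had log2 differences between −1.71 and −2.05, and receptors and channels were among them. Htr4 had 62.3, 35.6 and 34.8 normalized read counts in the 12 h libraries, against 232, 228 and 109 in the 6 h libraries (log2 difference −2.05 ± 0.37 SE, limma adjusted p = 0.00227). Htr4 encodes a serotonin receptor that couples to Gs, and a further serotonin receptor gene, Htr5a, fell by 1.71 (limma adjusted p = 0.000896). A3galt2 had 113, 205 and 210.4 normalized read counts in the 12 h libraries, against 795, 739 and 564 in the 6 h libraries, without overlap (log2 difference −2.02 ± 0.26 SE, limma adjusted p = 0.00022). A3galt2 makes an α-galactosyl glycolipid, and its mean was 55.8 ± 1.49 at 24 h and 33.5 ± 9.07 at 36 h. Rgs8 had 222, 215 and 266 normalized read counts in the 12 h libraries, against 949, 831 and 800.4 in the 6 h libraries (log2 difference −1.87 ± 0.24 SE, limma adjusted p = 0.000199). Rgs8 shortens G protein signals, and its mean of 36.2 ± 2.81 at 24 h lay under both early times.
Ptgdr had 277, 215 and 270.5 normalized read counts in the 12 h libraries, against 1034, 779 and 1012 in the 6 h libraries (log2 difference −1.88 ± 0.18 SE, limma adjusted p = 2.46e-05). Ptgdr is a prostaglandin D2 receptor, found in nociceptors in mouse. Trpc6, the cation channel, had 85.7, 70.2 and 71.7 normalized read counts in the 12 h libraries, against 270.1, 245 and 261 in the 6 h libraries, with narrow groups (log2 difference −1.76 ± 0.23 SE, limma adjusted p = 0.000228). Kcnmb2 and Kcng3 are subunits of potassium channels, St6galnac3 is a sialyltransferase, and with Zmat4, Ccdc68 and the itch receptor Mrgprx1 they fell, with log2 differences between −1.71 and −2.01. The 24 h mean lay below the 12 h mean in 9 of the 12 genes and above it in 3, and after a lesion 10 of the 12 fell and 0 rose in limma (0 also at an unadjusted p below 0.05).

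By amount rather than fold, the 5 largest called rises were Xist, Malat1, Sqstm1, Hspa5 and Vim. Sqstm1 had 17019, 19578 and 18264 normalized read counts in the 12 h libraries, against 13720, 13404 and 11498 in the 6 h libraries (log2 difference 0.51 ± 0.11 SE, limma adjusted p = 0.00672), and Sqstm1 encodes the autophagy receptor p62. Vim had 18858, 17189 and 16084 normalized read counts in the 12 h libraries, against 12987, 12114 and 13776 in the 6 h libraries (log2 difference 0.42 ± 0.11 SE, limma adjusted p = 0.019). Vim encodes the intermediate filament vimentin. Xist, a long nuclear RNA, had 29027, 20480 and 21917 normalized read counts in the 12 h libraries, against 14809, 14481 and 14471 in the 6 h libraries, and was highest in replicate 1 at 12 h (log2 difference 0.69 ± 0.13 SE, limma adjusted p = 0.00303). Xist overlaps the antisense gene Tsix, and since the library kit does not mark strand, reads of the 2 cannot be told apart. Xist is made in female cells, and the sex of the mice is not stated. A different share of female cells in the libraries and a change with time in culture therefore cannot be told apart. Malat1, a nuclear RNA, and the chaperone gene Hspa5 were not called without the shallow libraries. The 5 largest called falls were Rgs4, Cd24a, Fstl1, N28178 and Pirt. Rgs4 had 12371, 10644 and 12260 normalized read counts in the 12 h libraries, against 27408, 21972 and 23797 in the 6 h libraries (log2 difference −1.05 ± 0.14 SE, limma adjusted p = 0.000227). Rgs4 is a brake on G protein signals, and its groups differed 1.78-fold at the closest libraries. Pirt had 8482, 8970.5 and 11010 normalized read counts in the 12 h libraries, against 16698, 14864 and 14348 in the 6 h libraries (log2 difference −0.70 ± 0.12 SE, limma adjusted p = 0.00157), and Pirt is a membrane regulator of Trpv1. Cd24a and N28178 fell, with log2 differences of −0.78 and −0.78 (limma adjusted p = 0.00576 and 0.0011), while Fstl1, a secreted glycoprotein, passed narrowly (log2 difference of −0.35 ± 0.11, limma adjusted p = 0.0499) and was not called without the shallow libraries.

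Of 46 tested regeneration-associated genes 12 rose and 4 fell, with a median difference of 0.23 (all genes, 0.00). This list holds genes known from injured sensory neurons. Like the other lists, it was written with earlier results of these data known. Besides Sprr1a and Ecel1 the risen genes were Cckbr, Sema6a, Cebpd, Sez6l, Nts, Plaur, Cebpb, Stmn4, Itga7 and Lgals1. Sema6a had 4029, 3765 and 4400.4 normalized read counts in the 12 h libraries, against 1168, 1215 and 1178 in the 6 h libraries (log2 difference 1.77 ± 0.11 SE, limma adjusted p = 7.05e-07). Sema6a is a transmembrane semaphorin, and its groups lay more than 3-fold apart at the closest libraries. Cckbr, the cholecystokinin receptor, had 89.6, 105 and 96.3 normalized read counts in the 12 h libraries, against 24.0, 31.3 and 24.7 in the 6 h libraries (log2 difference 1.83 ± 0.18 SE, limma adjusted p = 2.52e-05). Sez6l had 658, 936 and 1007 normalized read counts in the 12 h libraries, against 308, 415 and 310.3 in the 6 h libraries (log2 difference 1.32 ± 0.16 SE, limma adjusted p = 0.000147), and its mean at 36 h was 4329.5 ± 194. Plaur, the receptor of urokinase, rose by 0.95 and the transcription factor Cebpd by 1.44 (limma adjusted p = 0.000267 and 0.00193). Nts, the neurotensin precursor, was not called without the shallow libraries, and Cebpb and Lgals1 were not called with the GC trend removed. In Itga7 the groups overlapped.

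Of the transcription factors that define the injury response, Atf3, Jun and Sox11 were not called. Atf3 had 9378, 12222 and 14422 normalized read counts in the 12 h libraries, against 10686, 10176 and 9598 in the 6 h libraries (log2 difference 0.22 ± 0.13 SE, limma adjusted p = 0.336), and the groups overlapped. Lesioned ganglia had 9207 ± 1995 and sham ganglia 557 ± 28.8, and all 6 early culture values lay above the sham ganglia. Jun had 5915, 9940.2 and 8839.7 normalized read counts in the 12 h libraries, against 6288, 6537 and 7606 in the 6 h libraries, again with overlap (log2 difference 0.24 ± 0.19 SE, limma adjusted p = 0.461). Sox11 had 3916, 2734 and 3046 normalized read counts in the 12 h libraries, against 3693, 2715 and 3325 in the 6 h libraries (log2 difference −0.01 ± 0.15 SE, limma adjusted p = 0.974). Gap43, the growth cone protein, had 2961, 3229 and 3789.7 normalized read counts in the 12 h libraries, against 3809, 3419 and 3769 in the 6 h libraries, with overlap as well (log2 difference −0.15 ± 0.12 SE, limma adjusted p = 0.507). Of 22 alternatives 2 called Atf3, 1 called Jun and 0 called Sox11 or Gap43. Without the shallow libraries Atf3 differed by 0.35 and Jun by 0.55 (limma adjusted p = 0.073 and 0.0517). The falls of the list included Il6, Bdnf and Klf6. Il6 had 140.3, 90.6 and 103 normalized read counts in the 12 h libraries, against 193, 197 and 243 in the 6 h libraries (log2 difference −0.93 ± 0.22 SE, limma adjusted p = 0.0127). Bdnf had 1831, 1261 and 1497 normalized read counts in the 12 h libraries, against 2085, 1834 and 2486 in the 6 h libraries (log2 difference −0.49 ± 0.14 SE, limma adjusted p = 0.0408). Bdnf encodes a neurotrophin and Il6 a cytokine, and the Krüppel-like factor Klf6 had a log2 difference of −0.47 (limma adjusted p = 0.0412).

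Of 49 tested nociceptor and itch neuron genes, which encode receptors, channels and peptides of pain and itch neurons, 14 fell and 0 rose (0 unadjusted, 0 in edgeR, 0 in DESeq2), with a median of −0.51. Besides Ptgdr and Mrgprx1 the fallen genes included Gfra2, Lpar3, Prkcq, Mrgprd, Prdm12, Oprl1, Cd55, Htr1d, Tac1, Scn11a and Plxnc1. Mrgprd had 1753, 1679.8 and 2173 normalized read counts in the 12 h libraries, against 4377, 3748 and 3169.9 in the 6 h libraries (log2 difference −1.01 ± 0.19 SE, limma adjusted p = 0.00326). Mrgprd is the Mas-related receptor that marks nonpeptidergic nociceptors, and its mean was 217 ± 19.4 at 24 h. Gfra2 had 822, 812 and 986 normalized read counts in the 12 h libraries, against 2356, 1979.5 and 1837 in the 6 h libraries (log2 difference −1.23 ± 0.14 SE, limma adjusted p = 0.000102). Gfra2 is the neurturin co-receptor of the same neurons. Prdm12, the transcription factor that nociceptors need to form, had 510.4, 553 and 574 normalized read counts in the 12 h libraries, against 1184, 1049 and 1023 in the 6 h libraries (log2 difference −0.99 ± 0.14 SE, limma adjusted p = 0.000545). Lpar3, a lysophosphatidic acid receptor, had 557, 548 and 628 normalized read counts in the 12 h libraries, against 1594, 1269 and 1234 in the 6 h libraries (log2 difference −1.23 ± 0.25 SE, limma adjusted p = 0.00492). Tac1 had 2307, 1431 and 1586 normalized read counts in the 12 h libraries, against 2822, 2273 and 3202 in the 6 h libraries, where 1 library at 12 h lay inside the 6 h range (log2 difference −0.66 ± 0.20 SE, limma adjusted p = 0.0486). Tac1 encodes the precursor of substance P.
Mrgprx1 had 46.8, 34.1 and 32.1 normalized read counts in the 12 h libraries, against 147, 155 and 109 in the 6 h libraries (log2 difference −1.84 ± 0.36 SE, limma adjusted p = 0.00402), resting on as few as 12 reads in a library. Mrgpra3 had 31.2, 31.2 and 28.0 normalized read counts in the 12 h libraries, against 139, 123 and 138 in the 6 h libraries (log2 difference −2.10 ± 0.69 SE, limma adjusted p = 0.0637), which limma did not call although the groups stood 3.93-fold apart at the closest libraries, and edgeR on the recovered reads gave an adjusted p of 0.000956. Mas-related receptors form a multicopy family, so reads could be split between near-identical copies and these values are uncertain. Several defining genes of nociceptors did not pass. Trpv1, the capsaicin receptor, had 452, 393 and 421 normalized read counts in the 12 h libraries, against 589.6, 645 and 571 in the 6 h libraries (log2 difference −0.51 ± 0.18 SE, limma adjusted p = 0.0762). Scn10a, the Nav1.8 channel, differed by −0.22 ± 0.12, P2rx3 by 0.02 ± 0.14 and Calca, the precursor of CGRP, by −0.25 ± 0.15 (limma adjusted p = 0.291, 0.934 and 0.325), and in all 3 the groups overlapped. Without the shallow libraries Oprl1 and Htr1d were not called, and with the GC trend removed 24 of the 49 fell and 1 rose. Falls numbered 20 in edgeR, 17 over 24 libraries, 14 over 6 and 9 after thinning to the shallowest library. In bulk RNA, fewer nociceptors and less of their RNA per cell cannot be told apart.

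Genes of large-fibre neurons, the touch and muscle afferents, gave 2 falls and 0 rises (1 unadjusted, 0 in edgeR, 1 in DESeq2) among 36 tested, with a median of −0.09. The 2 were Ptprt, a receptor phosphatase, and the acid-sensing channel Asic2, which fell, with log2 differences of −0.62 and −0.54 (limma adjusted p = 0.0138 and 0.0407). This is a share near the 4.72% of all tested genes.

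In the list of voltage-gated potassium and leak channel genes 14 of 50 fell and 0 rose (0 unadjusted, 0 in edgeR, 0 in DESeq2), with a median of −0.30. The potassium channel gene Kcnj10, read below as a satellite glia marker, is not in this list and rose by 1.08 (limma adjusted p = 0.000416). Kcnmb2, the β2 subunit of the BK channel, had 58.4, 24.9 and 43.7 normalized read counts in the 12 h libraries, against 189, 126 and 183 in the 6 h libraries (log2 difference −2.01 ± 0.32 SE, limma adjusted p = 0.00112). Kcng3 had 39.0, 40.4 and 35.5 normalized read counts in the 12 h libraries, against 147, 135 and 109 in the 6 h libraries (log2 difference −1.73 ± 0.32 SE, limma adjusted p = 0.00314). Kcng3 and Kcnv1 encode silent subunits that join Kv2 channels, and Kcnv1 fell by 1.00 (limma adjusted p = 0.0106). Kcnd3, the Kv4.3 channel of A-type currents, had 2377, 2203 and 2475 normalized read counts in the 12 h libraries, against 4345, 3974 and 4242 in the 6 h libraries, with each group within a narrow band (log2 difference −0.83 ± 0.11 SE, limma adjusted p = 0.00025). Its partner subunits Kcnip2 and Kcnip4 fell, with log2 differences of −0.89 and −0.75 (limma adjusted p = 0.0202 and 0.0197). Further fallen genes included Kcnn1, Kcnj3, Kcnab1, Kcnj12, Kcnmb1, Kcna4 and Kcns3. The list is wider than its name, since Kcnn1 encodes a calcium-activated channel and Kcnj3 and Kcnj12 encode inward rectifiers. Without the shallow libraries 9 of the 14 were called, and Kcnn1, Kcnj3, Kcna4 and Kcns3 were among those that were not. Kcnj3 was also not called with the GC trend removed.

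Calcium channel subunits gave 3 falls and 0 rises (0 unadjusted, 0 in edgeR, 0 in DESeq2) among 18 tested, with a median of −0.26. Cacna2d2 had 93.5, 119 and 146 normalized read counts in the 12 h libraries, against 224, 222 and 197 in the 6 h libraries, and the groups did not overlap (log2 difference −0.86 ± 0.23 SE, limma adjusted p = 0.0245). The gene of the series title lies at chr9:107399612-107529343 on the plus strand (GRCm38, GENCODE M21), and its culture means were 68.1 ± 7.94 at 24 h and 63.7 ± 17.7 at 36 h. Lesioned ganglia had 222 ± 29.4 against 324 ± 12.0 after sham surgery, also a fall (limma adjusted p = 0.00126). The 12 h against 6 h call of Cacna2d2 rested on as few as 24 reads in a library and was not made without the shallow libraries, and over all alternatives its adjusted p ran from 0.0028 to 0.202. Cacna2d1, a better known relative and a gabapentin target, had 5463, 3000.4 and 3923 normalized read counts in the 12 h libraries, against 5588, 4481 and 5691 in the 6 h libraries, with overlap (log2 difference −0.38 ± 0.18 SE, limma adjusted p = 0.216). Cacna1e, the R-type pore, and Cacnb4, a β subunit, fell, with log2 differences of −0.87 and −0.65 (limma adjusted p = 0.0142 and 0.014).

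Presynaptic vesicle genes gave 1 rise and 9 falls among 52, with a median of −0.15. Unc13c, a priming factor, had 319.5, 291 and 332 normalized read counts in the 12 h libraries, against 749, 692 and 695 in the 6 h libraries (log2 difference −1.18 ± 0.13 SE, limma adjusted p = 9.04e-05). Slc17a8, the vesicular glutamate transporter VGLUT3, had 253, 230.5 and 219 normalized read counts in the 12 h libraries, against 409, 363 and 469 in the 6 h libraries (log2 difference −0.81 ± 0.16 SE, limma adjusted p = 0.00431). Syt9, Rab3c, Sncg, Rims2, Pclo, Syt7 and Syt1 also fell, with log2 differences between −0.44 and −0.71, and Rab3c was not called without the shallow libraries. Stx1a had 471, 770.0 and 846 normalized read counts in the 12 h libraries, against 459, 491 and 346 in the 6 h libraries, and this syntaxin of the release machinery rose although the groups overlapped (log2 difference 0.66 ± 0.19 SE, limma adjusted p = 0.0389).

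**Figure D3:**
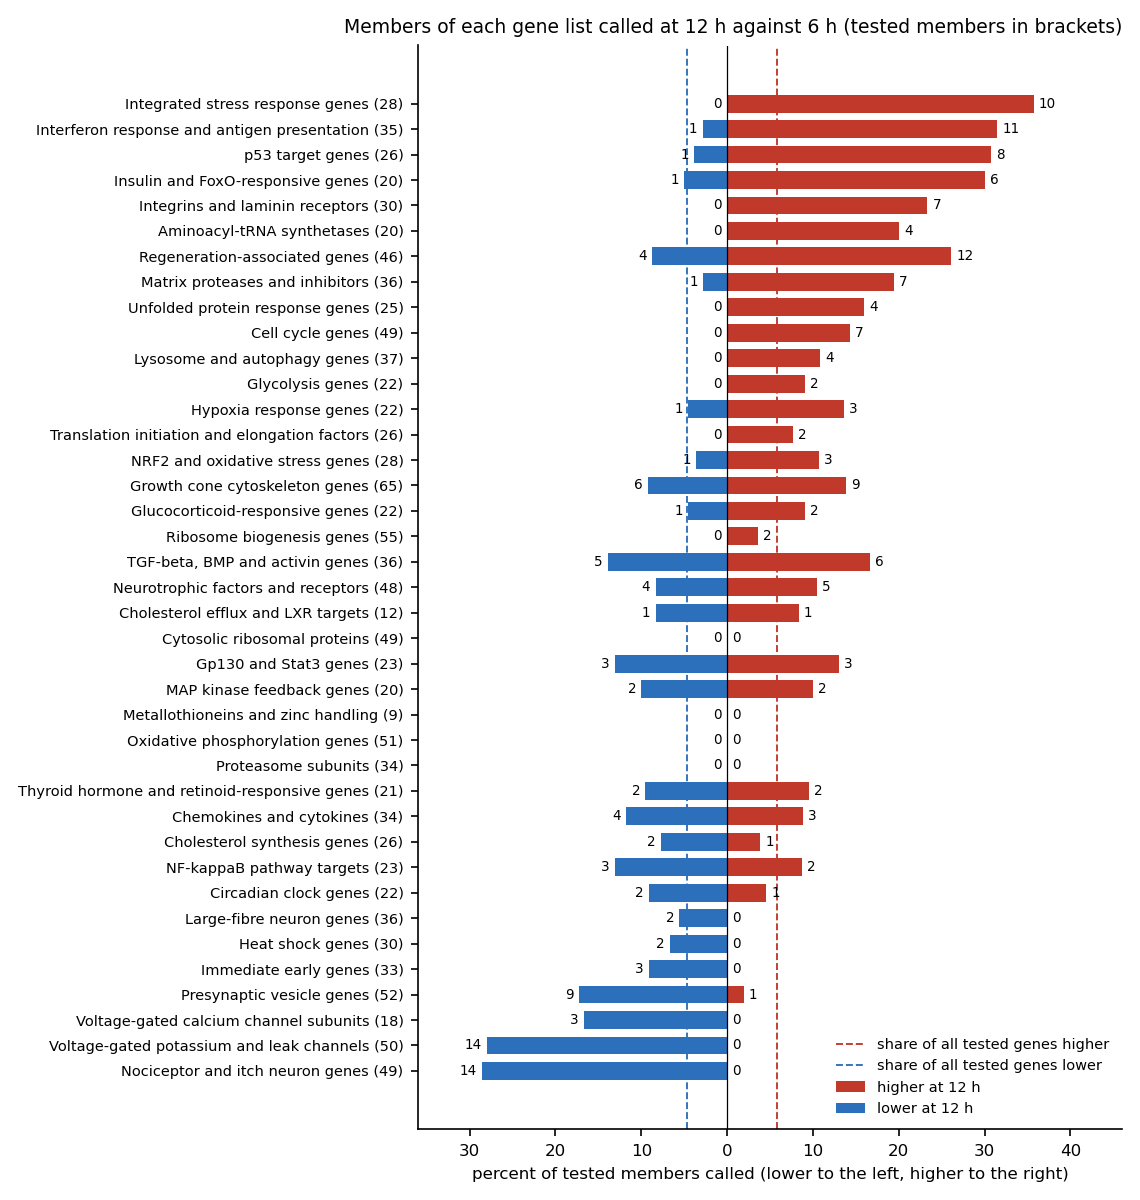
Percent of the tested members of each gene list (rows, number tested in brackets) that were called higher at 12 h (red bars, to the right of 0) or lower at 12 h (blue bars, to the left) than at 6 h (x axis), with the number of genes at the end of each bar. Dashed lines mark the shares of all tested genes, 5.86% higher and 4.72% lower. The nociceptor and potassium channel lists have 14 falls and 0 rises each, and the integrated stress response list 10 rises and 0 falls. Kcnj10, a potassium channel gene outside the lists shown, rose.

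Growth cone cytoskeleton genes moved both ways, with 9 rises and 6 falls among 65 and a median of −0.04. Tln1, which links integrins to actin, had 2010.5, 3215 and 2464 normalized read counts in the 12 h libraries, against 947, 1583 and 1125 in the 6 h libraries (log2 difference 1.08 ± 0.19 SE, limma adjusted p = 0.00226). Cotl1, Capg and Flna, which bind actin, Marcks and Marcksl1, substrates of protein kinase C, the tubulin Tubb6, the stathmin Stmn4 and the bundling protein Fscn1 rose by between 0.54 and 1.11 log2 units. Dcx had 117, 103 and 124 normalized read counts in the 12 h libraries, against 431, 317 and 321 in the 6 h libraries (log2 difference −1.62 ± 0.18 SE, limma adjusted p = 8.01e-05). Dcx, or doublecortin, binds microtubules in young migrating neurons, and its groups lay far apart, with a 36 h mean of 269.8 ± 10.0. Stmn1, Tubb4a, Pfn2, Tmsb4x and Lcp1 fell, with log2 differences between −0.36 and −0.65. Marcks, Tubb4a and Lcp1 were not called without the shallow libraries, and Fscn1 was not called with the GC trend removed. In Tubb6 and Tubb4a the groups overlapped.

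Of 30 integrin and laminin receptor genes, whose products hold cells to the laminin of the dish, 7 rose and 0 fell (2 unadjusted, 0 in edgeR, 1 in DESeq2), with a median of 0.27. Besides Tln1 these were the integrin subunits Itgb4, Itga7, Itgb8 and Itgb3, the dystroglycan gene Dag1 and paxillin, Pxn. In Itga7 the groups overlapped, with 2256 in the lowest 12 h library and 2461 in the highest 6 h library. Itgb4 had 77.9, 73.1 and 55.3 normalized read counts in the 12 h libraries, against 36.3, 31.9 and 7.05 in the 6 h libraries (log2 difference 1.69 ± 0.42 SE, limma adjusted p = 0.0182), which rested on as few as 2 reads. The other 5 rose by between 0.49 and 0.65, and Pxn was not called with the GC trend removed. That step gave 11 rises and 2 falls, against 2 rises in the fit over 6 libraries and 5 over 24. All 7 had a 36 h mean above the 12 h mean.

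Matrix proteases and their inhibitors gave 7 rises and 1 fall among 36, with a median of 0.28. Mmp3, or stromelysin, had 1056, 1242 and 1081 normalized read counts in the 12 h libraries, against 413, 527 and 568 in the 6 h libraries (log2 difference 1.17 ± 0.14 SE, limma adjusted p = 0.000156). Mmp13, a collagenase, had 1056, 1186 and 1018 normalized read counts in the 12 h libraries, against 360.1, 429 and 554 in the 6 h libraries (log2 difference 1.30 ± 0.19 SE, limma adjusted p = 0.000615). Both genes stood at no more than 3.58 ± 2.34 in lesioned and 5.35 ± 6.30 in sham ganglia, where they were too low to be tested. Mmp12, the macrophage elastase, had 27.3, 23.9 and 27.3 normalized read counts in the 12 h libraries, against 2.90, 12.1 and 3.53 in the 6 h libraries, at low counts (log2 difference 2.14 ± 0.40 SE, limma adjusted p = 0.00323). Mmp14, Serpine2, Plat and Plaur rose by between 0.44 and 0.95.

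Fos and Fosb, immediate early genes that respond first to calcium and stress signals, fell. Fos had 1258, 1638 and 1557 normalized read counts in the 12 h libraries, against 2627, 3024 and 2807 in the 6 h libraries (log2 difference −0.93 ± 0.13 SE, limma adjusted p = 0.000532). Fosb had 643, 1139.8 and 1074 normalized read counts in the 12 h libraries, against 1946, 2201 and 2102 in the 6 h libraries (log2 difference −1.17 ± 0.23 SE, limma adjusted p = 0.00437). Fosb had a mean of 146 ± 29.6 at 24 h and 43.9 ± 12.3 at 36 h, against 15.0 ± 5.47 in sham ganglia. With Klf6 they were the 3 falls among 33 tested genes of the list, with 0 rises (5 unadjusted, 0 in edgeR, 0 in DESeq2) and a median of 0.11. Egr1 had 2334, 2834 and 3403 normalized read counts in the 12 h libraries, against 3728, 3919.9 and 3805 in the 6 h libraries, below the 6 h range in all 3 libraries but not called (log2 difference −0.43 ± 0.17 SE, limma adjusted p = 0.115). Arc had 152, 295 and 329 normalized read counts in the 12 h libraries, against 251, 257 and 243 in the 6 h libraries, with overlap (log2 difference −0.03 ± 0.25 SE, limma adjusted p = 0.958). With the GC trend removed 7 of the 33 fell, against 2 in the fit over 6 libraries and 3 over 24. Of 22 alternatives 1, with the GC trend removed, called Egr1 lower (limma adjusted p = 0.00661). Feedback genes of the MAP kinase pathway gave 2 rises (Etv4 and Spry1) and 2 falls (Dusp8 and Spry4) among 20, with a median of −0.06. Etv4, counted from as few as 2 reads, rose by 1.68, and Spry1 by 0.71 (limma adjusted p = 0.0157 and 0.0447), the second not called without the shallow libraries or with the GC trend removed. Dusp8 and Spry4, which damp the pathway, fell, with log2 differences of −0.76 and −0.68 (limma adjusted p = 0.00605 and 0.00716).

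The integrated stress response, in which kinases that sense amino acid lack, misfolded protein or viral RNA raise the transcription factor Atf4 and its targets, gave 10 rises and 0 falls (0 unadjusted, 0 in edgeR, 0 in DESeq2) among 28 genes, with a median of 0.38. Gdf15, a stress hormone of the TGF-β family, had 121, 269 and 180.3 normalized read counts in the 12 h libraries, against 47.2, 74.8 and 42.3 in the 6 h libraries (log2 difference 1.75 ± 0.34 SE, limma adjusted p = 0.00445). Sesn2, which senses leucine, had 573, 1026 and 1035 normalized read counts in the 12 h libraries, against 415, 456 and 289 in the 6 h libraries (log2 difference 1.16 ± 0.22 SE, limma adjusted p = 0.00393). Slc7a11, the cystine importer, had 3951, 2913 and 2425 normalized read counts in the 12 h libraries, against 1907, 1769 and 1897 in the 6 h libraries (log2 difference 0.71 ± 0.17 SE, limma adjusted p = 0.0131). The 12 h libraries lay above the 6 h libraries in these 3 genes. Enzymes of serine and glycine synthesis, Phgdh and Shmt2, rose by 0.96 and 0.75, and the cationic amino acid transporters Slc7a3 and Slc7a1 by 0.87 and 0.45 (limma adjusted p = 0.00226, 0.00132, 0.00132 and 0.0244). Atf5, Cebpb and the phosphatase subunit Ppp1r15a completed the 10, Ppp1r15a with overlap between the groups. Slc7a1 was not called without the shallow libraries.
Atf4 had 6421, 6672 and 6875 normalized read counts in the 12 h libraries, against 6719, 5729 and 5441 in the 6 h libraries (log2 difference 0.16 ± 0.11 SE, limma adjusted p = 0.399), with overlap, so this central factor of the pathway was not called. Ddit3, or CHOP, had 1294, 1919 and 1952 normalized read counts in the 12 h libraries, against 1316, 1342 and 1125 in the 6 h libraries, with overlap too (log2 difference 0.43 ± 0.17 SE, limma adjusted p = 0.117). Without the shallow libraries Ddit3 was called higher (log2 difference 0.54, limma adjusted p = 0.027), and 4 of 22 alternatives called it. Asns, Trib3 and Chac1, further targets of Atf4, differed by 0.09, 0.19 and 0.19 and did not pass. The window of Slc7a11 is shown since it alone among the 9 risen genes that matched holds the core of the C/EBP-ATF response element, TGATGNAA, to which Atf4 dimers bind. It spans chr3:50443564-50443863 on the minus strand of GRCm38.p6, and both matches, in capitals, begin 66 and 47 bases before the start.
Slc7a11: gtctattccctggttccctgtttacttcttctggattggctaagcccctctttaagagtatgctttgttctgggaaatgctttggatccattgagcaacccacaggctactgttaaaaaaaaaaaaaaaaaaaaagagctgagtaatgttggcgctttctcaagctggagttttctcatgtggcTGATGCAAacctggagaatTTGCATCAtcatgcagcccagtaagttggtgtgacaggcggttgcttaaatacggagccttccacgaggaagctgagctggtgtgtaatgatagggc
TGATGNAA on either strand was found in 8 of the 25 matched genes of the list, in 4.51% of all genes with a window and in 2.83% of the matched tested genes.

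Aminoacyl-tRNA synthetase genes gave 4 rises and 0 falls (0 unadjusted, 0 in edgeR, 0 in DESeq2) among 20, with a median of 0.30. They were Cars, Aars, Lars and Yars, which load cysteine, alanine, leucine and tyrosine, with differences of 0.79, 0.69, 0.60 and 0.38. Lars, whose groups overlapped, was not called without the shallow libraries. The unfolded protein response of the endoplasmic reticulum gave 4 rises and 0 falls (0 unadjusted, 0 in edgeR, 0 in DESeq2) among 25, with a median of 0.04. Ern1, which encodes the sensor Ire1α, had 327, 363 and 374 normalized read counts in the 12 h libraries, against 202, 213 and 197 in the 6 h libraries (log2 difference 0.79 ± 0.12 SE, limma adjusted p = 0.000894). Atf6, a second sensor, had 4153, 3304 and 3789.7 normalized read counts in the 12 h libraries, against 2675, 2382 and 2398 in the 6 h libraries (log2 difference 0.59 ± 0.12 SE, limma adjusted p = 0.0044). Syvn1, a ligase of ER-associated degradation, rose by 0.61 (limma adjusted p = 0.0274), and Hspa5, or BiP, was the fourth. Cytosolic heat shock genes gave 0 rises (1 unadjusted, 0 in edgeR, 0 in DESeq2) and 2 falls among 30, with a median of −0.21. Dnajb1, an Hsp40 co-chaperone, had 697, 963 and 911 normalized read counts in the 12 h libraries, against 1584, 1569 and 1439 in the 6 h libraries (log2 difference −0.85 ± 0.13 SE, limma adjusted p = 0.00102). Dnajb4 fell by 0.53 (limma adjusted p = 0.0141). Without overlap 0 of the 30 lay higher and 10 lower at 12 h (13.3% and 13.2% of all tested genes). With the GC trend removed 10 of the 30 fell and 1 rose, against 1 fall in the fit over 6 libraries and 3 over 24.

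Of 26 tested genes of the p53 list, which holds p53 targets and the p53 gene, 8 rose and 1 fell, with a median of 0.32. Cdkn1a, the cell cycle inhibitor p21, had 5766, 6758 and 7163 normalized read counts in the 12 h libraries, against 3657, 3175 and 2539 in the 6 h libraries (log2 difference 1.08 ± 0.13 SE, limma adjusted p = 0.000175). Eda2r, a receptor of the TNF receptor family, had 565, 396 and 371 normalized read counts in the 12 h libraries, against 159, 131 and 176 in the 6 h libraries (log2 difference 1.49 ± 0.20 SE, limma adjusted p = 0.00028). Phlda3, an inhibitor of Akt, had 771, 1199 and 947 normalized read counts in the 12 h libraries, against 425, 395 and 391 in the 6 h libraries (log2 difference 1.24 ± 0.18 SE, limma adjusted p = 0.000519). In these 3 genes the groups did not overlap, with 12 h above 6 h. Trp53inp1, Bbc3, Sesn2 (also in the integrated stress response list), Aen and the p53 gene itself, Trp53, also rose, Trp53 by 0.71 (limma adjusted p = 0.0151). Bbc3, which encodes the death protein Puma, was not called without the shallow libraries. Rrm2b, a ribonucleotide reductase subunit, fell by 0.61 (limma adjusted p = 0.0202). Mdm2, the p53 ligase, had 2747, 2191 and 2369 normalized read counts in the 12 h libraries, against 2697, 2154 and 2292 in the 6 h libraries, with overlap (log2 difference 0.03 ± 0.13 SE, limma adjusted p = 0.908).

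Cell cycle genes gave 7 rises and 0 falls (1 unadjusted, 0 in edgeR, 0 in DESeq2) among 49, with a median of 0.33. Uhrf1, which maintains DNA methylation in S phase, had 113, 59.5 and 75.8 normalized read counts in the 12 h libraries, against 10.9, 15.4 and 14.1 in the 6 h libraries (log2 difference 2.50 ± 0.31 SE, limma adjusted p = 0.00019). The replication licensing genes Mcm5, Mcm3, Mcm7 and Cdt1 rose by 1.37, 1.11, 0.92 and 0.88, and Mcm7 was not called without the shallow libraries. Ccnd1, or cyclin D1, had 4103, 3483 and 3761 normalized read counts in the 12 h libraries, against 2299, 1795 and 2063 in the 6 h libraries (log2 difference 0.89 ± 0.12 SE, limma adjusted p = 0.00028). Ccnd2 rose by 0.47 (limma adjusted p = 0.0215). Mki67 had 148, 129.6 and 137 normalized read counts in the 12 h libraries, against 190.2, 208 and 205 in the 6 h libraries, lower at 12 h without overlap but not called (log2 difference −0.54 ± 0.20 SE, limma adjusted p = 0.104). Top2a had 11.7, 5.85 and 8.20 normalized read counts in the 12 h libraries, against 5.08, 6.05 and 3.53 in the 6 h libraries, at a few reads (log2 difference 0.68 ± 0.50 SE, limma adjusted p = 0.442). All 7 risen genes had a 36 h mean above the 12 h mean, with Ccnd1 at 9620.5 ± 703.

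Interferon response and antigen presentation genes gave 11 rises and 1 fall among 35, with a median of 0.37. Rsad2, or viperin, an antiviral enzyme, had 7500.3, 6036 and 10424 normalized read counts in the 12 h libraries, against 4496, 3337 and 4704 in the 6 h libraries (log2 difference 0.91 ± 0.23 SE, limma adjusted p = 0.0206). Oas1a, a sensor of double-stranded RNA, had 93.5, 102 and 140.0 normalized read counts in the 12 h libraries, against 39.2, 57.7 and 49.4 in the 6 h libraries (log2 difference 1.18 ± 0.23 SE, limma adjusted p = 0.00406). Ifi44 had 397, 278 and 484 normalized read counts in the 12 h libraries, against 169.9, 122 and 166 in the 6 h libraries (log2 difference 1.31 ± 0.27 SE, limma adjusted p = 0.0061). In these 3 genes every 12 h library lay above every 6 h library. Bst2, the tethering factor tetherin, had 105, 274 and 242 normalized read counts in the 12 h libraries, against 60.3, 108 and 52.9 in the 6 h libraries, where the lowest 12 h library lay inside the 6 h range (log2 difference 1.44 ± 0.32 SE, limma adjusted p = 0.00935). Irf7, the transcription factor that amplifies the response, had 238, 369 and 372 normalized read counts in the 12 h libraries, against 176, 189.7 and 145 in the 6 h libraries (log2 difference 0.91 ± 0.18 SE, limma adjusted p = 0.00431). Tap1, the peptide transporter of antigen presentation, had 378, 495 and 564 normalized read counts in the 12 h libraries, against 241, 255 and 239.8 in the 6 h libraries (log2 difference 0.94 ± 0.15 SE, limma adjusted p = 0.00116). In Irf7 and Tap1 the groups did not overlap. Oasl2, Usp18, Stat2, Ddx58 and H2-K1 rose by 0.76, 0.73, 0.51, 0.48 and 0.47. H2-K1 belongs to the class I family, whose members share reads, and its value is uncertain.
Gbp2, a guanylate-binding protein, had 1013, 725 and 898 normalized read counts in the 12 h libraries, against 1821, 1435 and 1858 in the 6 h libraries, the single fall of the list (log2 difference −0.96 ± 0.16 SE, limma adjusted p = 0.00167). Several abundant members did not pass in limma. Ifit1 had 4068, 3694 and 6369.7 normalized read counts in the 12 h libraries, against 3018, 2208 and 3484 in the 6 h libraries (log2 difference 0.68 ± 0.22 SE, limma adjusted p = 0.0607). Isg15 had 608, 709 and 842 normalized read counts in the 12 h libraries, against 639, 491 and 522 in the 6 h libraries (log2 difference 0.38 ± 0.14 SE, limma adjusted p = 0.107). Irf1 differed by −0.54 ± 0.19 (limma adjusted p = 0.0833). In Ifit1 and Irf1 the groups did not overlap, edgeR called Ifit1 (adjusted p = 0.0412), and both were called with the GC trend removed (limma adjusted p = 0.0216 and 0.0151). Rsad2 and H2-K1 were not called without the shallow libraries, and with the GC trend removed 17 of the 35 rose and 2 fell. The fit over 24 libraries called 4 of the 35 higher and the fit over 6 libraries 6. After a peripheral lesion 0 of the 11 risen genes rose and 1, Ddx58, fell, where 5 of the 35 members and 20.9% of all tested genes rose. The sham libraries spread widely for Irf7 among others, which stood at 75.5 ± 18.1 in lesioned and 94.3 ± 54.9 in sham ganglia.
The windows of 3 risen genes are shown because they hold the core of the interferon-stimulated response element, GAAA and a second GAAA with any 2 bases between them, to which Stat and Irf complexes bind. Those of Bst2 (chr8:71537423-71537722), Oas1a (chr5:120907476-120907775) and Rsad2 (chr12:26456403-26456702) lie on the minus strand of GRCm38.p6. The capitals mark the matches, which begin 130 and 124 bases before the start in Bst2 and 20 and 14 bases before it in Oas1a, overlapping each other in both, and 120 bases before it in Rsad2, there on the opposite strand.
Bst2: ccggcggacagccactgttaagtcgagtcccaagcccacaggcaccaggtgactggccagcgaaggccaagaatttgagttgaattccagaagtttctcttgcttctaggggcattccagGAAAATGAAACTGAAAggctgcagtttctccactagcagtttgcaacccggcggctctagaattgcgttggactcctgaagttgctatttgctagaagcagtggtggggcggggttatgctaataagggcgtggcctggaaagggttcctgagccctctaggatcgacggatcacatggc
Oas1a: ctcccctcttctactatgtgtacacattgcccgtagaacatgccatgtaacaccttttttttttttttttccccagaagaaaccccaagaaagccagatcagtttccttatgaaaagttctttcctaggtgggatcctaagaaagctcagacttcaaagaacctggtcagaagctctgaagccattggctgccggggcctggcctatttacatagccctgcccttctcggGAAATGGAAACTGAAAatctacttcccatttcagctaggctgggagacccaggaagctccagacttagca
Rsad2: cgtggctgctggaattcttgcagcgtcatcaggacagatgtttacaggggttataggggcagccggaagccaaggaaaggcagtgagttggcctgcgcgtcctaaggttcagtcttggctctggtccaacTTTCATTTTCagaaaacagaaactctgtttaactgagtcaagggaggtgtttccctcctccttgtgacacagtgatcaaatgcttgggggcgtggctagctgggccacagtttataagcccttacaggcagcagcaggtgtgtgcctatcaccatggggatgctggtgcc
Counted on both strands, that core occurred in 14 of the 28 list members that matched a window and in 5 of the 10 matched genes that rose (also Stat2 and Ddx58), against 3.99% of all genes with a window and 3.65% of the matched tested genes.

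Chemokines and cytokines gave 3 rises and 4 falls among 34, with a median of −0.10. Csf1, the macrophage growth factor, had 2010.5, 2459.5 and 2889 normalized read counts in the 12 h libraries, against 1928, 1805 and 1555 in the 6 h libraries (log2 difference 0.47 ± 0.14 SE, limma adjusted p = 0.0444), with a mean of 5080.4 ± 471 at 36 h. Cxcl12 and Cxcl14 rose by 0.93 and 0.93, Cxcl12 not without the shallow libraries. Ccl7 had 312, 221 and 228 normalized read counts in the 12 h libraries, against 499.5, 363 and 511 in the 6 h libraries (log2 difference −0.85 ± 0.21 SE, limma adjusted p = 0.0164). Ccl4 had 31.2, 45.8 and 43.0 normalized read counts in the 12 h libraries, against 106, 109 and 81.1 in the 6 h libraries (log2 difference −1.29 ± 0.28 SE, limma adjusted p = 0.00896). Ccl4 and Ccl7 attract monocytes, and with Il6 and Cxcl10 they made up the falls, of which Cxcl10 was not called without the shallow libraries and 0 of the 4 were called in the fit over 24 libraries. Targets of NF-κB gave 2 rises (Nfkb2 and Ikbke) and 3 falls (Cd83, Tnfaip3 and Sod2) among 23, with a median of 0.08. Tnfaip3, the A20 inhibitor of the pathway, had 487, 475 and 507 normalized read counts in the 12 h libraries, against 757, 746 and 684 in the 6 h libraries (log2 difference −0.57 ± 0.14 SE, limma adjusted p = 0.0159). Ikbke, counted from as little as 1 read, and Sod2 were not called without the shallow libraries. The gp130 and Stat3 list gave 3 rises and 3 falls among 23, with a median of 0.18. The rises included Cebpd and Pim1, and Il6, Lifr and Fgl2 fell. Fgl2, a fibrinogen-like protein, had 1679, 854 and 1173 normalized read counts in the 12 h libraries, against 4196, 2676 and 3977 in the 6 h libraries (log2 difference −1.58 ± 0.21 SE, limma adjusted p = 0.000239).

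In the TGF-β family list 6 of 36 genes rose and 5 fell, with a median of −0.02. Besides Inhbb the rises were Tgfb1, Bmp1, Tgif1, Smad3 and Tgfbr2. Tgfb1, the ligand TGF-β1, had 74.0, 101 and 103 normalized read counts in the 12 h libraries, against 42.8, 44.5 and 42.3 in the 6 h libraries (log2 difference 1.07 ± 0.22 SE, limma adjusted p = 0.00626). Bmp1, a procollagen protease despite its name, had 222, 381 and 335 normalized read counts in the 12 h libraries, against 132, 174 and 130.5 in the 6 h libraries (log2 difference 1.07 ± 0.19 SE, limma adjusted p = 0.00184). Id2 had 292, 230.5 and 249 normalized read counts in the 12 h libraries, against 647, 539.8 and 677 in the 6 h libraries (log2 difference −1.27 ± 0.22 SE, limma adjusted p = 0.00208). Id4 had 159.8, 130.1 and 187 normalized read counts in the 12 h libraries, against 383, 311 and 430.2 in the 6 h libraries (log2 difference −1.23 ± 0.22 SE, limma adjusted p = 0.00196). Id2 and Id4 are inhibitors of bHLH factors and textbook targets of BMP signals, and they fell with the BMP receptor gene Bmpr1b and with Fstl1. Smad3 was not called with the GC trend removed, and Tgfbr2, Bmpr1b and Fstl1 were not called without the shallow libraries.

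Neurotrophic factors and their receptors gave 5 rises and 4 falls among 48, with a median of 0.01. Btc, the EGF family ligand betacellulin, had 507, 291 and 408 normalized read counts in the 12 h libraries, against 125, 94.5 and 179.8 in the 6 h libraries (log2 difference 1.60 ± 0.25 SE, limma adjusted p = 0.000862). Erbb3, a neuregulin receptor of Schwann cells, had 203, 286 and 200.1 normalized read counts in the 12 h libraries, against 66.1, 83.0 and 81.1 in the 6 h libraries (log2 difference 1.55 ± 0.17 SE, limma adjusted p = 7.8e-05). Artn, or artemin, had 15.6, 20.5 and 8.20 normalized read counts in the 12 h libraries, against 2.18, 3.85 and 0 in the 6 h libraries, at the edge of detection (log2 difference 2.58 ± 0.56 SE, limma adjusted p = 0.00837). The growth factor Mdk rose by 1.08, not without the shallow libraries, and Igf1r by 0.45. Areg, another EGF family ligand, and the intracellular factor Fgf13 fell, with log2 differences of −0.97 and −0.93 (limma adjusted p = 0.0177 and 0.00146), next to Gfra2 and Bdnf.

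Insulin and FoxO-responsive genes gave 6 rises and 1 fall among 20, with a median of 0.32. Irs1, the docking protein of the insulin receptor, had 206, 201 and 200.1 normalized read counts in the 12 h libraries, against 110.4, 110.5 and 145 in the 6 h libraries (log2 difference 0.74 ± 0.15 SE, limma adjusted p = 0.00431). Txnip, which binds thioredoxin, had 744, 681 and 635 normalized read counts in the 12 h libraries, against 503, 393 and 381 in the 6 h libraries (log2 difference 0.70 ± 0.14 SE, limma adjusted p = 0.0045). Foxo4, Trib1, Insr and Igf1r rose by 0.79, 0.65, 0.56 and 0.45, and the ubiquitin ligase Fbxo32 fell by 0.51. Glycolysis genes gave 2 rises and 0 falls (0 unadjusted, 0 in edgeR, 0 in DESeq2) among 22, with a median of −0.06. Hk2, the inducible hexokinase, had 768, 681 and 852 normalized read counts in the 12 h libraries, against 417, 351 and 384 in the 6 h libraries (log2 difference 0.99 ± 0.14 SE, limma adjusted p = 0.000519). Slc2a1, the glucose transporter GLUT1, had 1870.2, 2185 and 2299.9 normalized read counts in the 12 h libraries, against 1235, 1316 and 1033 in the 6 h libraries (log2 difference 0.83 ± 0.12 SE, limma adjusted p = 0.000721). Hypoxia response genes gave 3 rises (Ero1l, Pfkfb4 and Ndrg1) and 1 fall (Pdk1) among 22, with a median of 0.00.

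Cholesterol synthesis genes gave 1 rise and 2 falls among 26, with a median of −0.24, and 10 falls with the GC trend removed. The fit over 24 libraries gave 4 falls and the fit over 6 gave 1. Stard4, which moves cholesterol between membranes, fell by 0.81, Acat2 fell by 0.53 and Sqle rose by 0.37 (limma adjusted p = 0.00323, 0.0188 and 0.0236), Sqle not without the shallow libraries. Srebf1 had 370.1, 725 and 593 normalized read counts in the 12 h libraries, against 270.1, 349.6 and 254 in the 6 h libraries (log2 difference 0.91 ± 0.21 SE, limma adjusted p = 0.0125). Srebf1, a master regulator of lipid synthesis, rose and the exporter Abca1 fell among 12 cholesterol efflux and LXR genes, with a median of 0.04. Of 22 clock genes Per3 rose and Npas2 and Bhlhe41 fell, with a median of 0.00, and Npas2 was not called without the shallow libraries. Per3 had 89.6, 108 and 90.8 normalized read counts in the 12 h libraries, against 46.5, 40.1 and 31.7 in the 6 h libraries (log2 difference 1.27 ± 0.21 SE, limma adjusted p = 0.0012).

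Smaller counts came from 5 lists. Genes of the NRF2 response to oxidants gave 3 rises (Slc7a11, Pgd and Sqstm1) and 1 fall (Sod2) among 28, with a median of 0.10. Lysosome and autophagy genes gave 4 rises and 0 falls (2 unadjusted, 0 in edgeR, 1 in DESeq2) among 37, with a median of 0.15. Glucocorticoid-responsive genes gave 2 rises (Cebpd and Angptl4) and 1 fall (Tsc22d3) among 22, with a median of −0.06. Thyroid hormone and retinoid-responsive genes gave 2 rises (Cyp26b1 and Hr) and 2 falls (Crabp2 and Dio2) among 21, with a median of 0.01. Ribosome biogenesis genes gave 2 rises (Nhp2 and Nat10) among 55 and translation factors 2 (Eif6 and Eif3c) among 26, with 0 falls in both (2 and 0 unadjusted, 0 in edgeR for both, 1 and 0 in DESeq2) and medians of −0.01 and 0.10. Nhp2, Nat10, Eif3c, Cyp26b1 and Tsc22d3 were not called without the shallow libraries. In 4 lists limma called 0 genes: 51 genes of oxidative phosphorylation, 49 cytosolic ribosomal proteins, 34 proteasome subunits and 9 metallothionein and zinc genes, with medians of −0.14, 0.16, −0.08 and −0.05. Unadjusted, 3 genes of oxidative phosphorylation were lower, 3 ribosomal proteins higher and 2 lower, 0 proteasome subunits either way, and 1 metallothionein or zinc gene higher and 2 lower. The edgeR test called 1 ribosomal protein higher and 1 metallothionein or zinc gene lower, and DESeq2 called 2 of each in the same directions.

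Markers of the cell types a DRG culture can hold were read beside these groups. Of 20 neuronal markers 4 fell and 0 rose (1 unadjusted, 0 in edgeR, 0 in DESeq2), with a median of −0.20. With the GC trend removed 9 of the 20 fell, against 5 without the shallow libraries and 2 in the fit over 6 libraries. The summed level of the 20 ran from 195040 to 272250 in the 12 h libraries and from 232100 to 273270 in the 6 h libraries. Elavl4, the RNA-binding protein HuD, had 1851, 1154 and 1652 normalized read counts in the 12 h libraries, against 3685, 3145 and 4453 in the 6 h libraries (log2 difference −1.29 ± 0.20 SE, limma adjusted p = 0.000744). Pou4f1, the sensory neuron factor Brn3a, had 2353, 1923 and 2076 normalized read counts in the 12 h libraries, against 3039, 2612 and 3427 in the 6 h libraries (log2 difference −0.51 ± 0.13 SE, limma adjusted p = 0.0222). Syt1 and Prdm12 were the other falls. Satellite glia markers gave 2 rises and 2 falls among 15, with a median of −0.04. Their sum ran from 37077 to 42932 at 12 h and from 31904 to 35181 at 6 h. Kcnj10, the glial Kir4.1 channel, had 483, 436 and 514 normalized read counts in the 12 h libraries, against 274, 226 and 183 in the 6 h libraries (log2 difference 1.08 ± 0.15 SE, limma adjusted p = 0.000416). Fabp7, a glial fatty acid-binding protein, had 121, 52.1 and 41.0 normalized read counts in the 12 h libraries, against 209, 156 and 268 in the 6 h libraries, highest in the shallow library of each group (log2 difference −1.68 ± 0.34 SE, limma adjusted p = 0.00528). Cdh19, of immature Schwann cells and glia, rose by 0.78, and the glutamate transporter Slc1a3 fell by 0.75.
Endothelial markers summed to between 4552 and 5287 at 12 h and between 3480 and 4279 at 6 h, and 1 of 14 rose. Their median was 0.33, and 7 lay higher and 1 lower at 12 h without overlap (13.3% and 13.2% of all tested genes). Plvap, a protein of capillary diaphragms, had 175, 355 and 262 normalized read counts in the 12 h libraries, against 74.1, 102 and 81.1 in the 6 h libraries (log2 difference 1.57 ± 0.25 SE, limma adjusted p = 0.00101). Pericyte markers gave 1 rise among 10, Notch3, with a median of 0.13. Fibroblast markers gave 1 rise, Pdgfra, and 2 falls, Apod and Ogn, among 13, with a median of −0.49. The fibroblast sums were 3121 to 4344 at 12 h and 4135 to 4982 at 6 h. In Notch3 and Ogn the groups overlapped. Of 15 macrophage markers limma called 0 (3 higher and 1 lower unadjusted, 0 in edgeR and in DESeq2), with a median of 0.19. Their sums were 563 to 690 at 12 h and 524 to 584 at 6 h. Of 16 markers of myelinating Schwann cells Drp2 fell, with a median of −0.20. Among 12 of nonmyelinating and repair Schwann cells Artn and Btc rose and Emp1 fell, Emp1 with overlap, and the median was 0.10. Of 4 tested mast cell markers Kit fell, with means of 725 at 12 h and 1045 at 6 h. Kit made up most of the sum of that list, 732.5 to 802 at 12 h and 1044 to 1120 at 6 h. Cpa3, Mcpt4, Tpsab1 and Fcer1a were too low to be tested, and which cells the Kit reads came from was not tested. The 5 neutrophil and 8 erythroid markers gave 0 calls in limma, edgeR and DESeq2 (1 erythroid marker higher unadjusted). The T, NK and B cell markers were too low to be tested, with Cd3g and Nkg7 at 0 in all 6 libraries, as was the neutrophil gene Elane. The part of glial, endothelial and other cells in the changes above was not tested.

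**Figure D4:**
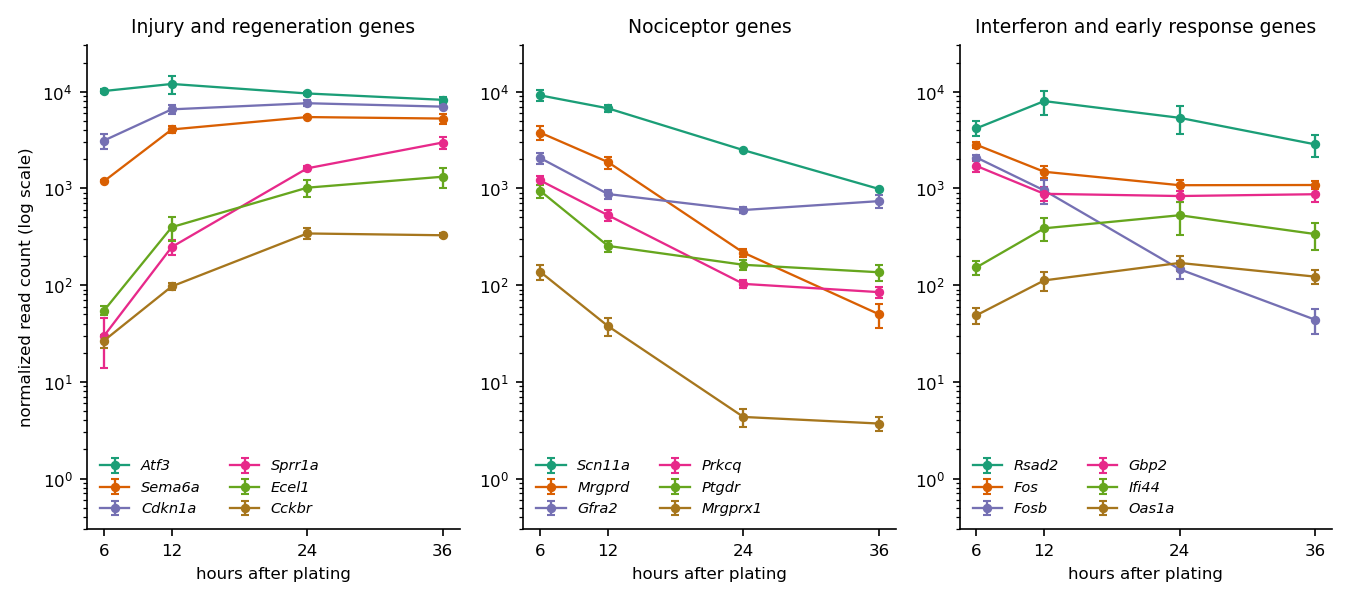
Mean normalized read count (y axis, log scale) at 6, 12, 24 and 36 h after plating (x axis) for selected genes of the text, with bars of 1 SD over 3 libraries. Genes called between 12 h and 6 h followed different later courses: the mean of Sprr1a was highest at 36 h, that of Rsad2 at 12 h.

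The late culture step and the lesion comparison share no library with the 12 h against 6 h difference, although both culture steps were fitted with 1 estimate of the spread. Between 36 h and 24 h limma called 166 genes higher (1.11%) and 232 lower (1.55%). Of the 880 genes that rose by 12 h, 63 (7.16%) rose again in that late step and 15 (1.70%) fell, and the 63 made up 38.0% of the late rises. Of the 708 that fell by 12 h, 73 (10.3%) fell again and 7 (0.989%) rose, the 73 being 31.5% of the late falls.

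In the animal, the lesioned ganglia had 3043 genes higher (20.9%) and 2947 lower (20.2%) than the sham ganglia among 14556 tested. Of 843 risen genes that were tested there 483 (57.3%) rose after the lesion and 13 (1.54%) fell, and these 483 were 15.9% of the lesion's rises. Of 703 fallen genes tested there 388 (55.2%) fell after the lesion and 70 (9.96%) rose, and the 388 were 13.2% of the lesion's falls. By list, 12 of 12 risen regeneration-associated genes and 8 of 9 tested integrated stress response genes that rose also rose after the lesion. So did 7 of 8 risen genes of the p53 list. Likewise 11 of 14 fallen nociceptor genes and 12 of 14 fallen potassium channel genes fell there. The lists as a whole also held high shares. In the regeneration-associated list 40 of 43 tested members rose after the lesion and 1 fell, in the integrated stress response list 18 of 25 rose and in the p53 list 13 of 26. In the nociceptor list 33 of 49 fell after the lesion and in the potassium channel list 30 of 50, and the uncalled members alone gave 22 of 35 and 18 of 36. Of 11 risen interferon genes 0 rose there (0 at an unadjusted p below 0.05), and of 7 risen cell cycle genes 1 did. Over those whole lists 5 of 35 interferon genes and 2 of 46 cell cycle genes rose after the lesion. Whether the called members differ from the rest of their list was not tested, and the lists were written with earlier results of these data known. The time after surgery is not given, and the labels repeat the culture and sorting text for every sample, so how far the ganglia were sorted cannot be told.

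**Figure D5:**
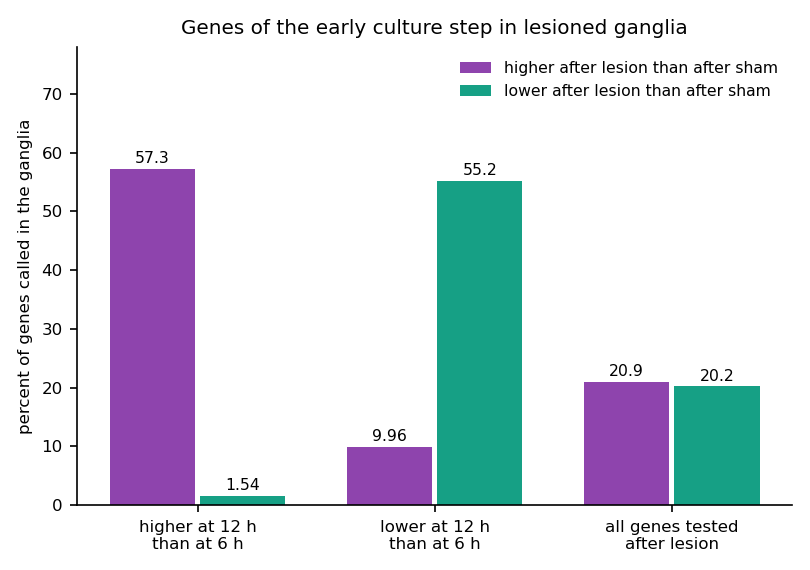
Share of tested genes that were called higher or lower after a peripheral lesion (y axis, percent), for the genes called higher at 12 h, those called lower at 12 h and all tested genes (x axis). Rises after the lesion make up 57.3% of the genes that rose by 12 h against 20.9% of all tested genes, and falls 55.2% of those that fell against 20.2%.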

How the data were processed

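RNA-seq values came from the authors' table of 20782 genes in 24 libraries. The deposited values are a signal scale, namely read counts divided by 1 factor per library. The submitters' processing notes name TopHat and the mm10 build, without versions; how reads were counted and scaled is not stated there or in the labels. Dividing each column by its smallest step gave whole reads for 100% of 339603 values of up to 1000 reads (tolerance 0.1).

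The main test was limma 3.58.1 (R 4.3.3) on log2(value + 1), with trend and robust moderation, over the 12 culture libraries, for genes with at least 10 in at least 3 libraries. Adjustment was by Benjamini-Hochberg over all 15006 tested genes, at 0.05. Lesioned and sham ganglia were fitted alone in the same way. On the recovered reads, edgeR 4.0.16 called 970 genes higher and 845 lower and DESeq2 1.42.0 called 1094 and 1139. Scripts were tested on simulated counts. GC content came from mm10 transcripts, and the GC step was added after the libraries were seen to differ by it. Replicates differed by more than counting noise, so no library was a copy of another.

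Named genes were Cacna2d2, the 12 largest rises and falls, the 5 largest by amount in each direction, up to 4 called in each direction per list, and defining members. Further list members are named where a count is spelled out, and some members that the counts include are not reported here. The members and lists were chosen with earlier results of these data known. Promoter windows are from RefSeq (GRCm38.p6) and gene positions from GENCODE M21.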

Additional observations from a re-analysis of the deposited data

How the results depend on the processing

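The counts of genes that rose and fell between 12 h and 6 h were 880 and 708. They moved by more than 1.5 times with 6 libraries only (363 and 403), with a weight per library (1558 and 1259, replicate 1 at 12 h weighted 0.214 and replicate 3 at 6 h 0.504), with the GC trend removed, a step chosen after seeing the data (1362 and 1386), and, for falls, in DESeq2 (1139). Leaving out 1 library gave 477 to 1480 rises and 371 to 1138 falls. Rises were 477 without 6 h replicate 3, 1480 without 12 h replicate 1, 554 without 12 h replicate 2 and 572 without 12 h replicate 3. Falls were 378 without 6 h replicate 1, 403 without 6 h replicate 3, 1138 without 12 h replicate 1 and 371 without 12 h replicate 2. The cause of each change was not tested. Pseudocounts of 0.5 and 5, both filters, plain moderation, TMM and DESeq2 scaling, edgeR, thinning to the shallowest library, the fit over 24 libraries, the fit without both shallow libraries and the GC step without both shallow libraries stayed within 1.5 times, at 627 to 1138 rises and 506 to 1008 falls. Of 234 called genes named in the text, 101 kept their call under all 22 alternatives, 7 could not be run under all of them, and 0 changed sign where they were run. The 6-library fit lost 100, the fit without 12 h replicate 2 lost 88, that without 6 h replicate 3 lost 88, that without 6 h replicate 1 lost 80, plain moderation 63 and thinning 55. Of 23 list counts with at least 4 calls, the 6-library fit lowered 16 by more than 1.5 times, thinning 6, the fit over 24 libraries 4 and the fit without both shallow libraries 2, while the GC step raised 6 and edgeR moved 0. Depth limits the low genes: 1 read stood for 3.90 units in the shallowest library. No paired analysis was possible because the labels give no replicate numbers that pair samples.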
